A study of Mus musculus with 8 samples.

Results

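Adamts1, Adamts2, Adamts4, Adamts5 and Adam12 are 5 metalloprotease genes that act on the extracellular matrix or at the cell surface, and they were followed here in Sox9-expressing cells of the embryonic mouse vertebral column. All probes of these genes were sought by the NCBI gene identifier written in the probe names, which found 1 probe per gene, 5 of the 46643 probes on the array. All 5 passed the filter on dim probes (detected on at least 3 of the 8 arrays), as did 20996 probes in all, 5602 of them with a gene name, from 4890 genes. In the HOMO group EGFP had replaced Sox9, and the cells came from chimaeric embryos, because embryos without Sox9 die before this stage. In the WT group EGFP stood behind an intact Sox9 gene, linked through an internal ribosome entry site, and the series text describes these embryos as heterozygous for EGFP. Both groups were E12.5 embryos of mixed C57BL/6J;129 strain background, both kept only cells sorted for EGFP, and each gave 4 arrays of total RNA. GEO's labels give another version of the Illumina array than the methods text does, so it is not settled that these are the arrays the study reports. The comparison asked how the RNA of matrix protease genes differs between cells without and with Sox9, a transcription factor needed to make cartilage.

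The ADAMTS proteases are secreted enzymes that carry a metalloprotease domain and thrombospondin repeats, and they cut proteoglycans and procollagens in the matrix. Adamts4 and Adamts5 are the aggrecanases, which cleave the large proteoglycan of cartilage, Adamts1 cleaves versican and aggrecan, and Adamts2 removes the amino-terminal propeptide of fibrillar procollagens. ADAM proteases are mostly anchored in the membrane and release the outer part of other membrane proteins, and Adam12 (meltrin alpha) is known for cutting insulin-like growth factor binding proteins and for its expression in mesenchyme that forms muscle and bone. Proprotein convertases such as furin activate both families, and the tissue inhibitors of metalloproteases hold them in check.

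The arrays of the 2 groups differed in overall signal. Mean intensity lay between 5.21 and 10.5 on the HOMO arrays and between 285.4 and 364.5 on the WT arrays, a ratio of 41.7 between the group means, and 15.5% to 20.2% of probes were detected in HOMO against 43.7% to 45.8% in WT. Overall signal, chimaeric origin and genotype cannot be told apart in this design, and in bulk RNA fewer cells that express a gene cannot be told apart from less RNA per cell. No probe carries a name for Sox9, so the deleted gene was not analysed here. The eGFP control probe read -5.0, -3.4, -3.4 and -1.1 on the HOMO arrays, none of them detected, and 92.4 to 116.6 on the WT arrays, all detected, although cells of both groups were sorted for EGFP. This probe was picked out after its values were seen, and its WT intensity lies within the range of the 5 protease probes. With its WT mean divided by 41.7, eGFP would stand at 2.60 in HOMO, where the dimmest detected probes stood at 7.9 to 9.0. On this scaling it would be undetected there also if its share of the signal had stayed the same. Of 7 chondrocyte markers kept (14 listed), 4 were detected on at least 1 HOMO array and all 7 on at least 1 WT array, and the 7 intensities summed to 9.03 to 11.8 times the array mean in HOMO and 47.5 to 71.5 times in WT. Of these 7 markers, 5 were called lower in the test described further on, 1 was called higher and 1 was not called. The marker called higher was Sox6 (2.57 on the quantile-normalized log2 scale, adjusted p = 3.21e-05, limma), detected on all 8 arrays with its brighter probe, while its dimmer probe was undetected on every HOMO array and called lower (-1.48). With median centring the brighter probe of Sox6 was called lower (-0.88). Col9a2, Col11a1 and Mia were undetected on every HOMO array, and Col11a1 was the marker not called (0.46, adjusted p = 0.384).

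On the deposited scale, Adamts1, Adamts2 and Adamts5 were detected on all WT arrays and on no HOMO array, Adamts4 was detected on all WT arrays and on 1 HOMO array, and Adam12 was the member detected on all 8 arrays. Detected means here a detection value above 0.95, that is brighter than nearly all negative control probes of the same array. Intensities are in array units after background subtraction, so a dim probe can be negative, and the level of 1 probe is not set against that of another. The patterns are not rare on these arrays: of all 20996 kept probes, 45.3% were detected on 4 WT and 0 HOMO arrays, 6.7% on 4 WT and 1 HOMO array, and 24.3% on all 8. Among the 4951 kept probes whose mean WT intensity lay in the range of the 5 members (71.0 to 230), these shares were 72.2%, 7.98% and 10.2%.

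Adamts1, a protease of versican and aggrecan (NCBI gene 11504), read -2.6, -3.7, -7.8 and -5.7 on HOMO arrays 1 to 4. On WT arrays 1 to 4 it read 69.8, 65.1, 68.5 and 80.7. The groups did not overlap, and every HOMO value lay below 0, where a probe is dimmer than the average background. Its mean was -4.95 ± 2.29 in HOMO and 71.0 ± 6.75 in WT (SD, n = 4 each). Detection values were 0.0212 to 0.321 in HOMO and 0.997 to 0.999 in WT. Ranked within each array, it stood at percentiles 24.0, 17.4, 1.75 and 4.99 in HOMO and at 70.6, 69.2, 72.1 and 72.3 in WT. The mean percentile was 12.0 ± 10.5 in HOMO and 71.0 ± 1.42 in WT (SD, n = 4 each), and the HOMO ranks order readings that were all undetected.

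The RefSeq promoter table (build GRCm38.p6) gave windows around the transcription start for 2 members, Adamts1 and Adamts2, each from 250 bases before to 50 bases after the start. They were searched on both strands for the letters that Sox proteins are known to bind, NNCAANG with A or T at each N, which makes 8 forms. The Adamts1 window held 1 match and the Adamts2 window none, while 24.6% of all 32851 windows in the table held at least 1. The Adamts1 match is shown because it is the place in a member's window where these letters occur, at position -218 from the start, chr16:85803314-85803342 on the minus strand, with the matching letters in capitals.
Adamts1 promoter: agccagcgctgTACAAAGtgctggtccca
A match describes letters and not a bound site, and binding was not measured on these arrays.

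Adamts2, the procollagen amino-propeptidase (NCBI gene 216725), read 1.8, 0.4, 1.8 and -0.6 on the HOMO arrays and 137.3, 124.8, 112.3 and 163.8 on the WT arrays. All HOMO values lay near 0 and the groups did not overlap. The means were 0.85 ± 1.17 in HOMO and 134.6 ± 22.0 in WT (SD, n = 4 each). Its detection values ran from 0.487 to 0.703 in HOMO and from 0.999 to 1 in WT. Its percentiles were 54.1, 48.0, 59.5 and 37.7 in HOMO against 76.8, 75.2, 76.6 and 78.7 in WT, so in HOMO it sat in the middle of all probes of the array.

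Adamts5, an aggrecanase (NCBI gene 23794), read 1.9, 0.7, -3.6 and 1.7 on the HOMO arrays and 120.5, 187.2, 108.6 and 141.1 on the WT arrays. HOMO array 3 was its dimmest, and no HOMO array came near a WT array. The means were 0.175 ± 2.57 in HOMO and 139.4 ± 34.6 in WT (SD, n = 4 each), and the WT arrays differed 1.72-fold among themselves, the widest spread of the 5 members. Its detection values were 0.201 to 0.698 in HOMO and 0.999 to 1 in WT. Percentiles were 54.7, 50.2, 16.1 and 55.5 in HOMO, and 75.6, 78.8, 76.3 and 77.3 in WT. A second probe whose name holds the same number without padding zeros was not read as Adamts5, since unpadded numbers are mostly cluster numbers.

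Adamts4, the other aggrecanase (NCBI gene 240913), read 9.3, 1.9, 4.9 and 7.4 on the HOMO arrays and 210.9, 230.4, 213.4 and 265.3 on the WT arrays. Only HOMO array 1 was called detected, at a detection value of 0.957, and HOMO array 4 fell just short at 0.943. The means were 5.88 ± 3.20 in HOMO and 230.0 ± 25.1 in WT (SD, n = 4 each). In percentiles it stood at 80.5, 58.3, 75.7 and 79.1 in HOMO against 80.6, 80.6, 82.3 and 83.0 in WT. The groups did not overlap in rank, but the highest HOMO array lay just under the lowest WT array. Divided by the mean intensity of its array, Adamts4 was 0.728 ± 0.298 in HOMO and 0.703 ± 0.093 in WT (SD, n = 4 each), values that overlap.

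Adam12, the membrane-anchored member (NCBI gene 11489), read 15.5, 12.6, 8.7 and 13.0 on the HOMO arrays and 123.1, 97.7, 76.0 and 84.9 on the WT arrays. Every HOMO array was dimmer than every WT array in intensity, as were 93.9% of kept probes. The means were 12.45 ± 2.81 in HOMO and 95.4 ± 20.5 in WT (SD, n = 4 each), a ratio of 7.66, against 41.7 for the arrays as wholes. Its detection values were 0.995, 0.981, 0.958 and 0.994 in HOMO and 0.997 to 1 in WT. Within the array it ranked at percentiles 88.5, 88.5, 85.3 and 87.0 in HOMO and 75.8, 73.0, 73.0 and 72.8 in WT. Each HOMO array thus placed Adam12 higher among its probes than any WT array did, a pattern shared by 23.6% of all kept probes and by 13.5% of those in the members' WT intensity range. Relative to the mean intensity of its array, Adam12 was 1.62 ± 0.232 in HOMO and 0.289 ± 0.048 in WT (SD, n = 4 each), a ratio of 5.59.

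**Figure D1:**
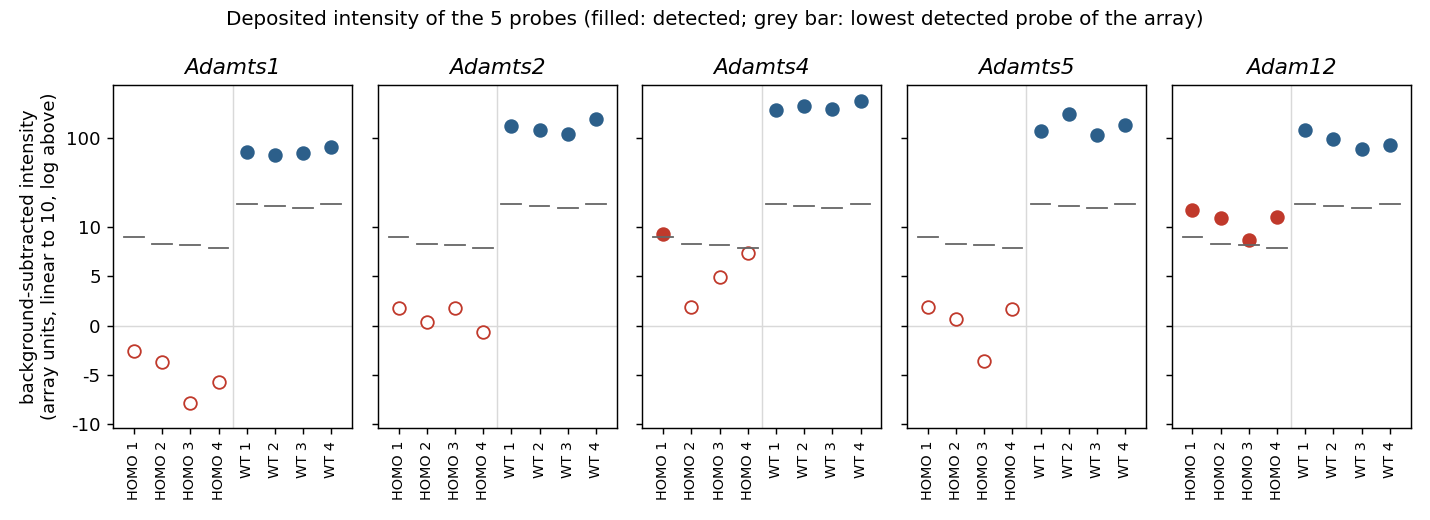
Background-subtracted intensity of the 5 probes (array units, linear up to 10 and logarithmic above) on HOMO arrays 1 to 4 (red) and WT arrays 1 to 4 (blue). Filled points are detected, open points are not, and grey bars give the dimmest detected probe of each array (7.9 to 9.0 in HOMO, 16.5 to 18.4 in WT). Adam12 lies above that bar on all 8 arrays, while the 4 Adamts probes lie under it in HOMO apart from Adamts4 on array 1.

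The other 4 members ranked lower in HOMO. Each was placed lower by every HOMO array than by any WT array, as were 46.2% of all kept probes and 57.6% of those in the same WT intensity range. The difference in mean percentile, HOMO minus WT, was -59.0 for Adamts1, -27.0 for Adamts2, -32.9 for Adamts5 and -8.25 for Adamts4, where the median probe of that range changed by -21.5. For Adam12 it was 13.7. The WT ranks of each member spanned few percentiles, with SDs of 1.21 to 1.45, whereas the HOMO ranks of the 4 Adamts probes had SDs of 9.37 to 18.8 and those of Adam12 1.51. A rank below the detection limit of an array orders background readings and is no measured level.

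**Figure D2:**
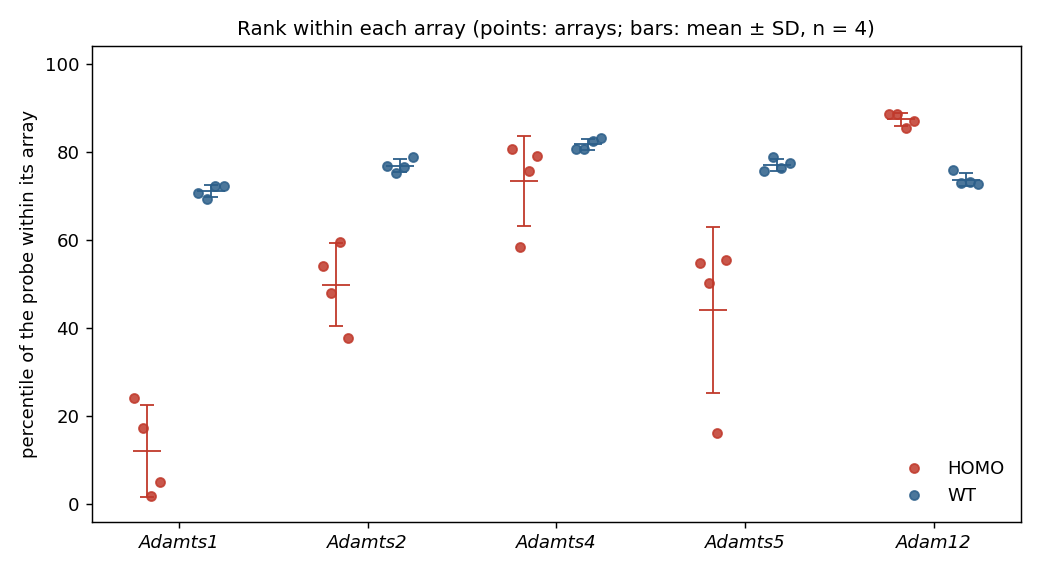
Percentile of each probe among the 46596 non-control probes of its array, for HOMO arrays (red, left) and WT arrays (blue, right). Points are arrays and bars the mean ± SD of 4. Adam12 sits near 87.3 in HOMO against 73.6 in WT, and the 4 Adamts probes sit lower in HOMO.

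How far an unchanged gene could have been seen in HOMO can be read from the same numbers. With the WT mean divided by 41.7, the ratio of the array means, Adamts1 would stand at 1.70, Adamts2 at 3.22, Adamts5 at 3.34, Adamts4 at 5.51 and Adam12 at 2.29. The dimmest detected probes of the HOMO arrays stood at 7.9 to 9.0. All 5 values expected from the array means lie below these, so on this scaling the 3 undetected members would be undetected also if their share of the signal had stayed the same. The measured HOMO mean of Adamts4, 5.88, is close to its expected 5.51 on this scaling alone. With the ratio of the 75th percentiles (19.3) Adamts4 would stand at 11.9, Adamts2 at 6.98, Adamts5 at 7.23 and Adamts1 at 3.69, and with the ratio of the medians (14.7) they would stand at 15.6, 9.14, 9.47 and 4.83. Adamts4 measured below both of these, and Adamts2 and Adamts5 would have reached the dimmest detected probes with the medians, while Adamts1 would have stayed under them throughout. The HOMO 75th percentiles and medians lie below the dimmest detected probes themselves. Adam12, at a measured 12.45, lies above the 2.29, 4.95 and 6.48 expected from the 3 ratios. These 3 values lie below the dimmest detected HOMO probes (7.9 to 9.0). Any probe with this WT mean that was detected on every HOMO array would therefore lie above them too, so the comparison adds nothing to its detection.

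Genotype was tested with limma across all kept probes on quantile-normalized log2 values, with Benjamini-Hochberg adjustment and calls at an adjusted p of at most 0.05. Here 3 members were called lower in HOMO, 1 was called higher and 1 was not called, against 48.5% of all kept probes called lower and 24.8% called higher. Adamts5 differed by -1.82 (SE 0.15, adjusted p = 9.23e-06), Adamts2 by -1.75 (SE 0.15, adjusted p = 1.23e-05) and Adamts1 by -1.41 (SE 0.12, adjusted p = 1.20e-05). All 3 were undetected on every HOMO array and passed the filter on dim probes through the WT arrays alone. Their p-values therefore set WT signal against background readings in HOMO. These 3 have no fold bound, since their WT levels of 5.75 to 6.45 lie below 7.09, the mean over HOMO arrays of the dimmest detected level. The median difference of all kept probes was itself -0.56 on this scale, and relative to it the differences were -1.26, -1.18 and -0.85 in the same order. On the median-centred scale, where the median probe stood at -2.26, all 3 were again called lower, but relative to that median Adamts1 was at 0.65, Adamts2 at -0.04 and Adamts5 at -0.08.

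Adam12 differed by 1.92 on the quantile-normalized log2 scale (SE 0.17, adjusted p = 1.20e-05, limma). Its levels were 8.16, 8.15, 7.63 and 7.89 on the HOMO arrays and 6.29, 5.96, 5.96 and 5.93 on the WT arrays, without overlap. Of the 5098 probes detected on all 8 arrays, 56.1% were called higher. On this scale the direction of Adam12 follows from its detection in HOMO, since its WT level of 6.04 lies below 7.09, and of the 2152 kept probes with such a WT level that were detected on all 4 HOMO arrays, 99.9% were called higher. These made up 17.2% of the 12518 kept probes with such a WT level. The sign of Adam12 depended on the scaling. It was called higher at 0.57 in the authors' normalized values (adjusted p = 0.0313, limma), where 15.6% of kept probes were called higher and 70.6% lower. With median and median absolute deviation scaling it was called higher at 0.31 (adjusted p = 0.0319, limma), as were 21.8% of kept probes, with 57.8% lower, and with quantile normalization of log2 values it was called higher at 1.21. With median centring it was called lower at -1.39 (adjusted p = 1.36e-06, limma), as were 87.8% of kept probes, with 3.91% higher. Relative to the median of all kept probes on these 4 scales it was 2.41, 0.77, 1.64 and 0.87, against 2.48 in the quantile-normalized fit. Adam12 thus stood above the median probe on each of these 5 scales, which all transform the same 8 readings. A median has as many probes above it as below, and the share of probes above it on all 5 was not counted.

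Adamts4 differed by -0.88 (SE 0.42, adjusted p = 0.0857, limma) and was not called. Its levels were 6.92, 4.86, 6.28 and 6.72 in HOMO and 6.93, 6.93, 7.17 and 7.27 in WT, and HOMO array 2 held the lowest by far. Without HOMO array 2 the difference was -0.44, and without HOMO array 1, the array on which it was detected, it was -1.12 and was called (adjusted p = 0.0389). It was also called lower at -2.85 with median centring, at -1.99 in the authors' normalized values, at -0.88 with median and median absolute deviation scaling and at -0.91 with array weights. Relative to the median of all kept probes it stood at -0.59, -0.16, -0.42 and -0.36 on these 4, and at -0.32 in the quantile-normalized fit.

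**Figure D3:**
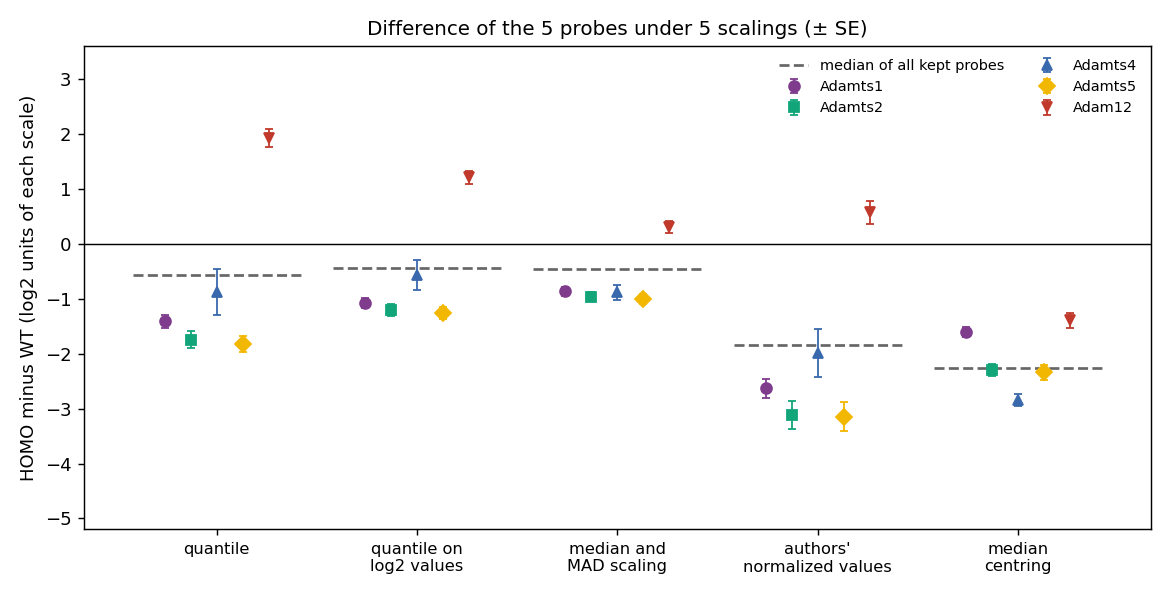
HOMO minus WT difference (log2 units of each scale, ± SE of the limma fit) of the 5 probes under 5 scalings, with the median of all kept probes on each scale as a dashed line. Adam12 lies above the dashed line on each scale and above 0 on all but the median-centred one, where it is at -1.39.

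Over the 8 arrays, the named genes whose quantile-normalized levels ran most like Adam12 were Hsp90ab1, Oxct2b and Flot2 (Pearson's r 0.993, 0.992 and 0.992). For Adamts1 they were Ilk, Atn1 and St3gal4 (0.9989 to 0.9996), for Adamts2 Dohh, Cdo1 and Tbc1d1 (0.996 to 0.998), for Adamts5 Mapkap1, Eif3a and Nono (0.996 to 0.997), and for Adamts4 Cpm and Adsl (0.985 and 0.980). These r values describe 8 points in 2 separate groups that differ in overall signal, so a gene that differs between the groups and varies little within them scores high. Of the 4885 other named genes, 318 reached an r above 0.95 with Adam12, 909 with Adamts1, 791 with Adamts2, 1024 with Adamts5 and 24 with Adamts4, the member with the widest spread of HOMO levels.

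The other genes of the protease system were taken from lists of proteases, activators, inhibitors and substrates, each gene by its brightest kept probe. Of 128 genes listed, 46 had a named probe and 28 a kept one, and of these 8 were called higher, 14 lower and 6 were not called, with a median difference of -0.63. Among all 4890 named genes 23.1% were called higher and 48.7% lower, with a median difference of -0.62, so the related genes as a list lay near all named genes. With median centring 0 of the 28 were called higher and 26 lower, and in the authors' normalized values 1 higher and 21 lower. Of 7 related genes with 2 kept probes, 4 had probes that differed in their call.

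No other Adamts gene could be set beside the members: 6 of the 21 Adamts and Adamts-like genes listed had a named probe (Adamts8, Adamts10, Adamts12, Adamts16, Adamts18 and Papln), and none of these was kept. Of 6 other Adam genes kept, 4 were called lower, 2 were not called, and the median difference was -0.94. Adam19, a relative of Adam12 also found in mesenchyme, read 6.5, -4.0, 3.5 and 2.5 on the HOMO arrays and 525.0, 444.4, 434.2 and 540.6 on the WT arrays. It was undetected on every HOMO array and at least 1.94-fold lower (limma adjusted p = 1.21e-04). This bound is set by the dimmest detected level of the HOMO arrays. Like every fold bound here, it holds on the quantile-normalized scale only. With its WT mean divided by 41.7, Adam19 would stand at 11.6 in HOMO, where the dimmest detected probes stood at 7.9 to 9.0. Adam17, the sheddase that releases tumour necrosis factor, was detected on 3 HOMO arrays and on all WT arrays and fell by 1.26 (SE 0.31, adjusted p = 0.00597, limma). Adam10, the sheddase of Notch receptors, and Adam23 were called lower without a fold bound, both undetected on every HOMO array, and Adam10 did not pass in the authors' normalized values (-0.48, adjusted p = 0.608) or with array weights (-0.61, adjusted p = 0.107).

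Among the metalloproteases of the Mmp family, Mmp17 was called lower without a bound and Mmp19 was called higher at 1.91 (SE 0.33, adjusted p = 8.77e-04, limma), although Mmp19 was detected on 1 HOMO array and on 2 WT arrays. Reading 5.6, 6.5, 6.6 and 10.7 in HOMO and 14.3, 14.8, 22.2 and 25.8 in WT, Mmp19 was close to background in both groups. With median centring Mmp19 differed by -0.016. Ctsb, a lysosomal cysteine protease, differed by -1.64 (SE 0.54, adjusted p = 0.0226, limma) with its brighter probe, a call that was lost without WT array 1 (-1.60) or WT array 2 (-1.60) and with median and median absolute deviation scaling (-0.15).

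Adamts2 shares its procollagen substrates with the enzymes that remove the other propeptide. Bmp1, the procollagen C-proteinase, read 56.3, 29.0, 35.3 and 49.4 on the HOMO arrays and 914.7, 803.9, 902.9 and 1014.1 on the WT arrays, and was detected on all 8. It was called higher at 1.36 (SE 0.19, adjusted p = 2.17e-04, limma). Pcolce, which enhances that cleavage, read 37.3, 28.9, 19.1 and 32.8 in HOMO and 740.8, 579.4, 596.8 and 804.9 in WT, was detected on all 8 arrays and was called higher at 1.20 (SE 0.18). Both ranked higher within every HOMO array than within any WT array, Bmp1 at a mean percentile of 97.1 in HOMO against 92.3 in WT and Pcolce at 95.5 in HOMO against 90.3 in WT. The sign turned with the scaling: both were called lower in the authors' normalized values (-0.95 and -1.04) and with median centring (-3.40 and -3.35).

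Of 6 fibrillar collagen genes kept, the substrates of Adamts2 and Bmp1, 2 were called higher, 3 lower and 1 was not called. Col3a1 read 6.9, 2.8, -0.4 and 3.5 on the HOMO arrays and 2654.2 to 3752.6 on the WT arrays. On the quantile-normalized scale it was at least 12.47-fold lower (limma adjusted p = 1.48e-06). With its WT mean divided by 41.7, Col3a1 would stand at 79.6 in HOMO, where the dimmest detected probes stood at 7.9 to 9.0. Col1a2 differed by -3.04 (SE 0.57), Col2a1, the collagen of cartilage, by -2.06 (SE 0.30), and Col5a1 by 0.61 (SE 0.19, adjusted p = 0.0172, limma), and Col5a1 ranked among the brightest probes of every array, at mean percentiles of 99.4 in HOMO and 99.0 in WT. Col5a1 was called lower in the authors' normalized values (-1.43) and with median centring (-4.18), and its call was lost with normal scores of ranks (0.18). Col1a1, encoding a chain of bone collagen, was called higher at 1.36 (adjusted p = 0.026, limma), but its call was lost when HOMO array 1, 2 or 4 or WT array 1 or 2 was left out (1.12 to 1.26), and it was called lower with median centring (-3.22). The call of Col2a1 was lost with median and median absolute deviation scaling (-0.10).

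Proteoglycans that the Adamts enzymes cleave were represented by 3 kept genes. Vcan, encoding versican, read 1.0, 3.3, -0.9 and 2.3 on the HOMO arrays and 897.7, 1204.4, 787.7 and 1065.1 on the WT arrays. On the quantile-normalized scale it was at least 3.79-fold lower (limma adjusted p = 5.42e-07). With the WT mean divided by 41.7, this probe of Vcan would stand at 23.7 in HOMO. The dimmer probe of Vcan did not pass (-0.65, adjusted p = 0.0898). Ncan, encoding the neural proteoglycan neurocan, was called lower without a bound (-0.42), a call that was lost when HOMO array 1 or 4 or WT array 1, 2 or 4 was left out (-0.42 to -0.34). Dcn, encoding decorin, read 58.0, 30.0, -0.3 and 48.1 on the HOMO arrays and 2239.4 to 2698.6 on the WT arrays with its brighter probe, and HOMO array 3 stood apart. This probe did not pass (-1.59, adjusted p = 0.262, limma), and without HOMO array 3 the difference was -0.18 (adjusted p = 0.247). It was called lower in the authors' normalized values (-3.71) and with median centring (-5.21). The dimmer probe of Dcn was undetected on every HOMO array and called at least 2.39-fold lower on the quantile-normalized scale (adjusted p = 2.22e-05, limma). Aggrecan itself had no kept named probe.

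Of the insulin-like growth factor binding proteins that Adam12 cuts, Igfbp3 read -1.7, -0.8, -1.8 and -0.4 on the HOMO arrays. On the WT arrays it read 441.0, 320.8, 280.3 and 320.4. On the quantile-normalized scale it was at least 1.39-fold lower (limma adjusted p = 4.82e-07). With its WT mean divided by 41.7, Igfbp3 would stand at 8.16 in HOMO. That is below 8.35, the mean of the dimmest detected HOMO intensities, so Igfbp3 has no bound on this scaling. Igfbp5 was among the brightest probes of both groups, with a mean percentile of 99.6 in HOMO and 99.7 in WT, and a difference of -0.25 that did not pass (SE 0.14, adjusted p = 0.150, limma). Igfbp5 was called lower in the authors' normalized values (-2.12) and with median centring (-4.90), and called higher with median and median absolute deviation scaling (5.44).

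On the quantile-normalized scale, of 3 metalloprotease inhibitors kept 1 was called higher, 1 lower and 1 was not called, and of 3 proprotein convertases kept 2 were called higher and 1 lower. With median centring all 3 inhibitors and all 3 convertases were called lower, as were 87.8% of kept probes. Timp2, an inhibitor of metalloproteases, read 171.8, 96.7, 60.6 and 141.2 in HOMO and 2129.7 to 2612.7 in WT and was called higher at 1.15 (SE 0.15, adjusted p = 1.50e-04, limma), but lower in the authors' normalized values (-0.93) and with median centring (-3.62). Timp3, the inhibitor known to act on Adamts4 and Adamts5, did not pass with its brighter probe (0.10, adjusted p = 0.831) and was called higher without HOMO array 3 (0.52), while its dimmer probe was undetected on every HOMO array and called lower. Reck, a membrane-anchored inhibitor, differed by -2.25 (SE 0.65, adjusted p = 0.0134, limma) and was detected on 2 HOMO arrays. Of the proprotein convertases, Furin was called higher at 0.88 (SE 0.29, adjusted p = 0.0245) though detected on 1 HOMO array, and its call was lost when HOMO array 1 or WT array 1, 2 or 3 was left out (0.81 to 0.88), in the authors' normalized values (0.64, adjusted p = 0.0674) and with median and median absolute deviation scaling (0.0041, adjusted p = 0.974), and turned with median centring (-0.72). Pcsk7 was at least 1.79-fold lower on the quantile-normalized scale. With its WT mean divided by 41.7, Pcsk7 would stand at 10.7 in HOMO. The 2 probes of Pcsk2 were called in opposite directions (1.80 and -0.57), the brighter one turning to -1.28 with median centring. The call of that brighter probe was lost in the authors' normalized values (0.64, adjusted p = 0.0645) and with median and median absolute deviation scaling (0.22, adjusted p = 0.0738).

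**Figure D4:**
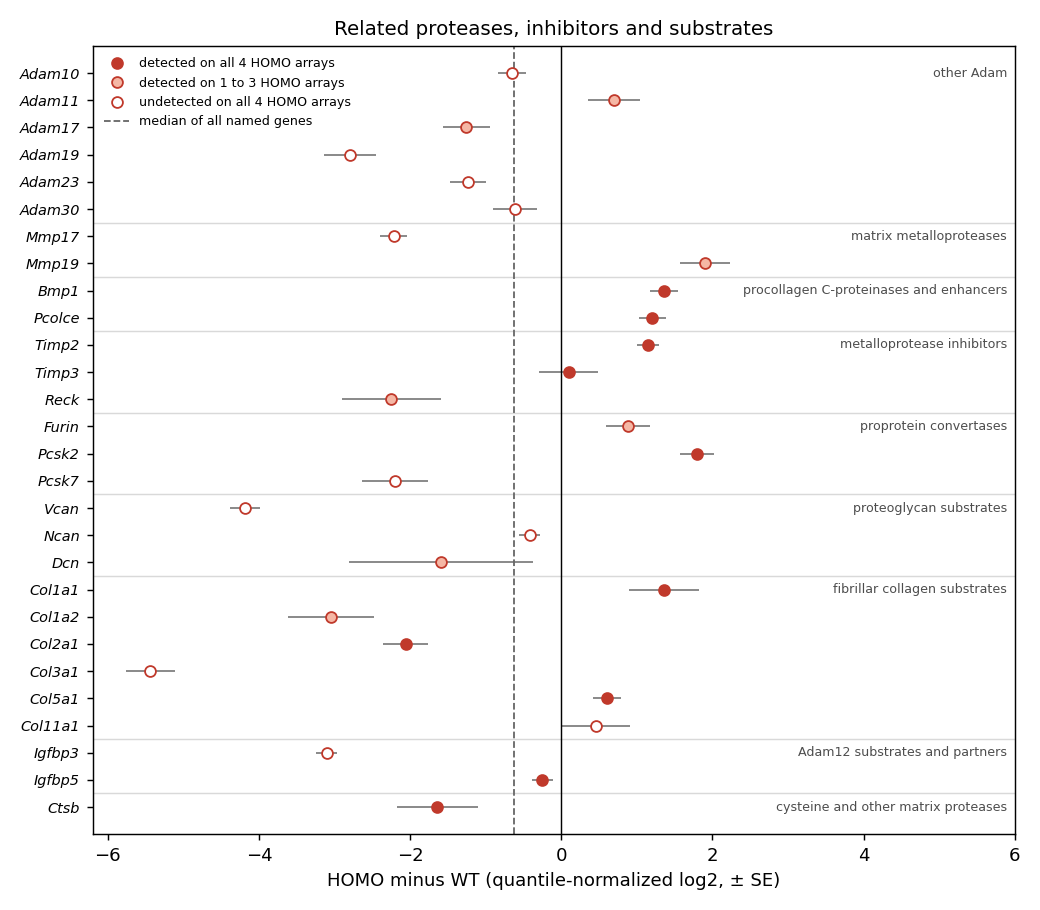
HOMO minus WT difference (quantile-normalized log2, ± SE of the limma fit) of the 28 related genes kept, by list, each by its brightest probe. Fill shows on how many HOMO arrays the probe was detected, and the dashed line is the median of all named genes, at -0.62. The 10 genes detected on all 4 HOMO arrays lie from -2.06 to 1.80, and the 11 undetected on all 4 include Col3a1 and Vcan. With median centring none of the 28 was called higher.

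Markers of other cell types also differed between the groups, and their part in the protease results was not tested. All 6 neural markers kept (6 listed) were detected in WT, and their intensities summed to 1.72 to 2.55 times the array mean in HOMO and 8.48 to 23.3 times in WT, with 5 called lower and Sox2, Nes and Nefm undetected on every HOMO array. The 2 erythroid markers kept (5 listed) summed to 4.51 to 48.9 times the array mean in HOMO and 4.31 to 8.58 times in WT, with HOMO array 3 apart at 4.51 and the other HOMO arrays at 32.3 to 48.9, clear of WT. Most of the sum came from Hba-a1, which did not pass (2.03, adjusted p = 0.0538, limma), and Hbb-b1 was called higher (0.90, adjusted p = 0.00445). Hbb-b1 turned to -1.95 with median centring, -0.29 in the authors' normalized values and -0.23 with median and median absolute deviation scaling. The 2 endothelial markers kept (5 listed) summed to 2.13 to 3.05 in HOMO and 0.460 to 1.77 in WT, with 1 called higher, Pecam1. It was detected on 1 HOMO array and 3 WT arrays. In HOMO the dimmest detected probes (7.9 to 9.0) lie near the array means (5.21 to 10.5). In WT the dimmest detected probes (16.5 to 18.4) lie far below the array means (285.4 to 364.5). Readings near background therefore weigh more in the HOMO sums than in the WT sums. Pecam1 did not pass in the authors' normalized values (1.28) or with median and median absolute deviation scaling (0.22), and turned with median centring (-0.56). The 1 tendon marker kept (3 listed), Scx, gave 4.17 to 6.63 in HOMO and 1.89 to 3.37 in WT. Scx was called higher on the quantile-normalized scale (1.36) and with median and median absolute deviation scaling (1.37). It was called lower in the authors' normalized values (-0.94) and with median centring (-3.37). The 5 sclerotome and mesenchyme markers kept (8 listed) summed to 33.1 to 41.3 in HOMO and 24.2 to 28.8 in WT, with 2 called higher, 3 called lower, and Prrx1 and Col3a1 undetected on every HOMO array. The 1 macrophage marker kept (5 listed), Cd68, was undetected on every HOMO array and summed to -1.39 to -0.464 times the array mean there, against 0.0315 to 0.0705 in WT, and no skeletal muscle marker had a kept named probe.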

How the data were processed

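RNA from EGFP-sorted cells of E12.5 vertebral columns was hybridised to 8 Illumina arrays, 4 HOMO and 4 WT, which the study's methods describe as biological replicates. The authors prepared background-subtracted intensity values with GenomeStudio (version not given in the sources used here). The deposited detection column is a fraction, near 0 for the dimmest and near 1 for the brightest probes, so it was taken as the complement of a detection p. The authors' normalized table holds log2 values, which were found to be log2 of the intensity raised to at least 1 and shifted per array and per probe (largest deviation 1.60e-06).

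Its 46624 rows carry the probe names, and 38432 were joined to the intensity table by equal rows of 8 values. The other 8192 had no unique match and stayed unnamed, and 47 control probes were left out. Zero-padded numbers in the names were read as NCBI gene identifiers (GRCm38.p6 table): in 3 ranges 77.7% to 93.8% of them exist as identifiers of mouse genes, against 3.22% to 30.7% of all possible numbers.

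Background was removed by normexp fitted on the detection values, 16 was added as offset, and arrays were quantile-normalized before log2 was taken (limma 3.58.1, R 4.3.3). Probes with a detection value above 0.95 on at least 3 of 8 arrays were kept. HOMO minus WT was tested two-sided with limma (lmFit, eBayes), and p-values were adjusted by Benjamini-Hochberg over 20996 probes. The script was tested on simulated data first. A fold for a probe undetected on a whole group is a bound. It is taken against the mean, over that group's arrays, of the higher of the dimmest detected level and the probe's own. None is given where it does not exceed 1, and each holds on the quantile-normalized scale only. Python 3.11.15, numpy 2.4.6, pandas 2.3.3 and matplotlib 3.10.9 were used for tables and figures. The number of arrays limits the precision. The members, the lists and the named genes (all member probes, up to 4 genes of each list with the smallest p, and the 3 genes most like each member) were chosen with earlier results of these data known. For Adamts4, 1 of these 3 genes is not reported here. Alternatives covered the scaling, background correction, offset, filter, test, replicate block, array weights and each array left out.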

Additional observations from a re-analysis of the deposited data

Results flagged for a closer look

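Of 30 groups of 4 arrays examined (5 members, 2 genotypes, 3 measures), 3 had 1 array far from the other 3, where chance gives about 1 in 20. The percentile of Adamts5 on HOMO array 3 was 16.1, while the other HOMO arrays placed it at 50.2 to 55.5. Adam12 on WT array 1 stood apart in 2 measures of the same value, with a percentile of 75.8 against 72.8 to 73.0 on the other WT arrays and a normalized log2 level of 6.29 against 5.93 to 5.96. Without that array Adam12 was still called higher (limma adjusted p = 5.27e-05), and without HOMO array 3 Adamts5 was still called lower.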

How the results depend on the processing

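Under each of 20 alternatives, Adamts1, Adamts2 and Adamts5 were called lower in HOMO, with adjusted p (limma or the methods' t-test) between 3.04e-09 and 0.0092. Their HOMO readings were all undetected, and most alternatives reuse the same quantile-normalized values. With the ratio of the array means they would be undetected in HOMO also at an unchanged share of the signal. The number of alternatives that call them therefore cannot by itself show a decrease. Adam12 was called higher under 19 of 20 and reversed to -1.39 with median centring. Most of these alternatives reuse values on which the direction of Adam12 follows from its detection in HOMO. The number that call Adam12 higher therefore cannot by itself show an increase. Adamts4, at -0.88 and not called, was called lower with median centring (-2.85), the authors' normalized values (-1.99), median and median absolute deviation scaling (-0.88) and array weights (-0.91). Leaving out each array in turn gave -1.47 to -1.37 for Adamts1, -1.82 to -1.66 for Adamts2, -1.88 to -1.73 for Adamts5, 1.85 to 2.03 for Adam12 and -1.12 to -0.44 for Adamts4 (adjusted p 0.0389 to 0.169), which was called without HOMO array 1.

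Called probes numbered 15384 in all, of which 33.9% were higher, and this share was 27.4% with median and median absolute deviation scaling, 18.1% in the authors' normalized values, 4.26% with median centring and 44.6% with no detection filter. In place of 8 related genes, 0 were called higher with median centring and 1 on the authors' normalized scale, and in place of 14, 26 were called lower with median centring. Leaving out each array in turn gave 6 to 10 higher and 12 to 15 lower. With median centring the sign turned for Bmp1 (-3.40), Pcolce (-3.35), Timp2 (-3.62), Timp3 (-4.29), Col1a1 (-3.22), Col5a1 (-4.18), Pcsk2 (-1.28), Adam11 (-1.23), Furin (-0.72), Col11a1 (-0.28) and Mmp19 (-0.016). On the authors' normalized scale it turned for Bmp1 (-0.95), Pcolce (-1.04), Timp2 (-0.93), Timp3 (-2.06), Col1a1 (-0.72) and Col5a1 (-1.43), and with median and median absolute deviation scaling for Adam11 (-0.16), Dcn (0.0099) and Igfbp5 (5.44). Without 1 array, Timp3 ranged from -0.089 to 0.52 and Col11a1 from -0.029 to 0.72. Calls were also lost for Ncan with an offset of 50 (-0.18) and array weights (-0.38), and for Col1a1 and Ctsb with no detection filter (adjusted p = 0.0558 and 0.0508) and the methods' t-test (0.0575 and 0.0529). The cause was not tested. The methods' t-test passed 15293 probes at its unadjusted threshold and 14710 after Benjamini-Hochberg. Quantile normalization of log2 values was chosen after seeing the data. With a detection value above 0.99, Adam12 was detected on 2 HOMO arrays and Adamts4 on 0. Ranked among kept probes alone, the percentile difference was 30.7 for Adam12 and -30.1 for Adamts1.

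Same-numbered arrays did not deviate together (correlations -0.03 to 0.03), so no pairing by replicate number was visible. Of the kept probes used, 45.3% were detected on 4 WT and 0 HOMO arrays, where HOMO deviations are background. The check therefore cannot exclude that the samples were paired. With the replicate block 14806 probes were called while Ncan, Col1a1 and Col5a1 lost their calls (adjusted p = 0.0675, 0.0524 and 0.0507) and no member's call changed (Adam12 1.92, adjusted p = 2.74e-04, Adamts4 -0.88, adjusted p = 0.0693).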
